A study of Homo sapiens with 4 samples.

Results

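Antisense transcripts run over, or close beside, a gene on the other DNA strand, and 218 of them were expressed well enough in MDA-MB-231 cells to be followed after exposure to MGH-CP1. They are the rows of the authors' table with the gene type antisense whose mean in the 4 libraries reached 1 FPKM, a unit that counts fragments per kilobase of a gene relative to all reads of its library. Of 4586 antisense rows among 48162 rows in all, 221 reached that level. Of these, 3 (ZFAS1, SNHG7 and SNHG10, hosts of small nucleolar RNAs) were set aside by their names in the authors' table. RP11-752G15.6 (current name SNHG21) has another name there and stayed among the 218. No read was listed for 2491 antisense rows in any library. The 218 genes were thus chosen by their mean level over both groups. A gene low in 1 group could pass through the other, and the genes this touches are counted at the end. Just inside the limit were RP11-264I13.2 (current name SMARCA2-AS1) and RP11-511I2.2 (LINC01389), and just outside were RP5-1050D4.5 with a mean of 0.996 FPKM and RP11-1020A11.2 with 0.984 FPKM.

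MDA-MB-231 is an established line from a triple-negative breast cancer. One group of 2 libraries came from cells given vehicle and the other group of 2 from cells given MGH-CP1 at 10 µM, in both cases for 24 h. The series title calls MGH-CP1 an inhibitor of TEAD palmitoylation, and TEAD proteins bind DNA and carry the coactivators YAP and TAZ to it. The line is a single tumour line, and no label describes separate cultures, so p-values here measure only the spread between these libraries.

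Antisense RNAs often start at the same open promoter as the gene they oppose and are transcribed away from it. Others start inside a gene, or beyond its end, and run back across it. Many are kept scarce by early termination and by the nuclear exosome, the complex that degrades unstable nuclear RNA. Some are known to act on the neighbouring gene, for example by carrying chromatin proteins to it, while for most no role is known. Clone-based names such as RP11-368I7.2, given to 171 of the 218 genes, mark transcripts that had no symbol when the table was made. The gene name table at hand paired 136 of the 218 with a current name, which is given in parentheses where it differs.

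The layout on hg19, the build of the authors' table, put 155 of the 218 genes across a protein-coding gene on the other strand, called the partner here. In 58 cases the antisense gene lay inside its partner, in 48 the pair was divergent (the start regions overlapped and transcription ran apart), in 37 it was convergent (the ends overlapped), and in 12 the partner lay inside the antisense gene. No protein-coding row was overlapped by 59 genes, and 4 overlapped one on their own strand only. Of the 63 genes without a partner, 32 had an opposite-strand protein-coding gene within 1000 bases, 19 of them head to head and 13 tail to tail.

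Promoter sequences are shown for 2 antisense genes that start opposite a gene described below, since the pairs differed in whether both genes moved together. RefSeq windows of 300 bases on GRCh38.p14, from 250 bases before to 50 bases after the annotated start, were found for 95 of the 218 genes. They are written 5′ to 3′ on the gene's own strand, and capitals mark the TEAD core GGAATG on either strand, here read as CATTCC. The TGFB2-AS1 window is chr1:218345629-218345928 on the minus strand and that of TGFB2 is chr1:218345086-218345385 on the plus strand. The first of 2 ZEB1-AS1 windows is chr10:31319046-31319345 on the minus strand. RefSeq starts need not be those of the authors' table.
TGFB2-AS1: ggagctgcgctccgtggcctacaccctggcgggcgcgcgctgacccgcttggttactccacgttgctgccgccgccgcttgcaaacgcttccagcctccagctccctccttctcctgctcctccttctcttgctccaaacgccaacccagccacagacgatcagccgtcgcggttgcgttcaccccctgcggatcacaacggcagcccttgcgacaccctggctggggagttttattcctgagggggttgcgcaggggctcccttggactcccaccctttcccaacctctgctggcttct
TGFB2: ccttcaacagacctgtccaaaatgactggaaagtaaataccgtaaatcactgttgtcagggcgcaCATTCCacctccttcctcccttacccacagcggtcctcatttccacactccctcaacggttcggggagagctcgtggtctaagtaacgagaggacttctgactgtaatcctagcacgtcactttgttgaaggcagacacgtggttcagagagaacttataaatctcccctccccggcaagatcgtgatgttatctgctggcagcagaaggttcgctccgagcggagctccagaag
ZEB1-AS1: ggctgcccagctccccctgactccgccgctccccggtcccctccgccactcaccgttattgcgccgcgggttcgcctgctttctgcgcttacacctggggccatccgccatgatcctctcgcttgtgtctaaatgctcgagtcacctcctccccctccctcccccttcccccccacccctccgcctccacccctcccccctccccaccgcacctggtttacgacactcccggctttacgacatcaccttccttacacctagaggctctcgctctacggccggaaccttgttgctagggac
The TGFB2 window held 1 TEAD core and the other 2 windows held none, and none of the 3 held the E2F core TTCCCGC. Over the 95 antisense genes, the TEAD core was found in 14 (14.7%), against 16.7% of the 27305 genes with a window. The E2F core, bound by factors of the S-phase programme, was found in 6 (6.32%), against 7.82% of all genes. Among antisense genes with a window, the TEAD core stood in 3 of the 13 called higher and 0 of the 13 called lower. Such a match, or its absence, describes the letters in a window and not a bound site.

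The libraries held 16790645 to 18485701 reads, recovered from the FPKM values. Between 1379 and 1404 antisense rows had at least 1 read in a library, and the 218 genes together took 26176 to 29082 reads, or 0.151% to 0.158% of a library. Reads of the mitochondrial genome made up 0.676% and 0.645% of the vehicle libraries and 1.81% and 1.54% of the MGH-CP1 libraries. The tissue labels were checked against markers: the mesenchymal genes VIM, CD44, AXL and ZEB1 were expressed, and SPARC was near 0 (mean 0.172 FPKM). Of the luminal and epithelial markers, ESR1 averaged 0.00228 FPKM and PGR was listed at 0. The others were present, with means of 8.55 FPKM for EPCAM, 3.69 FPKM for GATA3 and 0.666 FPKM for CDH1. Summed leukocyte markers reached at most 0.0895 FPKM and summed endothelial markers at most 0.0286 FPKM, while fibroblast markers, several of which mesenchymal tumour lines also express, summed to 5.0 to 7.03 FPKM. Both lists named next were chosen with earlier results of these data known. The TEAD target list, which holds AXL and TGFB2, had 20 of 25 genes lower (80%) and none higher with MGH-CP1. Of the listed S-phase genes, 40 of 40 were lower, beside 25.1% of all rows tested. The part of these series-wide differences in the values below was not tested.

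With MGH-CP1, 35 of the 218 antisense genes were higher and 28 were lower by limma (Benjamini-Hochberg adjusted p under 0.05 over all 11790 rows tested), and 155 did not pass. That is 28.9% called, against 45.0% of all rows tested, of which 20.0% were higher and 25.1% lower. The median log2 fold change, on the log2(FPKM + 1) scale, was 0.08 for the antisense genes and -0.02 for all rows. This scale understates the change of low genes, and most of these genes were low: their median level was 2.14 FPKM, 103 lay under 2 FPKM and 108 had fewer than 30 reads in at least 1 library. Changes of at least 1 on the log2 scale were called for 5 antisense genes (2.29%), against 3.33% of all rows. Both MGH-CP1 libraries lay above both vehicle libraries for 74 genes (33.9%) and below them for 55 (25.2%), against 34.7% and 39.4% of all rows. Scaling each library to its median moved the split to 44 higher and 19 lower, and testing all rows with no filter on low values left 12 higher and 7 lower. The split was 21 higher and 20 lower without MGH-CP1 replicate 2, and 28 higher and 18 lower without MGH-CP1 replicate 1.

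The share called was higher in genes with more reads. Among genes with under 50 reads per library on average, 29 of 131 antisense genes were called (22.1%), beside 31.1% of lincRNA rows and 25.5% of protein-coding rows. From 50 to under 200 reads the shares were 33.8% for antisense, 35.9% for lincRNA and 33.3% for protein-coding rows. At 200 reads or more, 11 of 19 antisense genes were called (57.9%), 2 higher and 9 lower, beside 58.8% of lincRNA rows and 49.8% of protein-coding rows. In the band under 50 reads 18 antisense genes were higher and 11 lower, and in the middle band 15 were higher and 8 lower. Protein-coding rows split into 33 higher and 21 lower under 50 reads and 261 and 348 in the middle band. LincRNA rows split into 13 higher and 19 lower, and 12 and 16. At 200 reads or more the splits were 1928 and 2427 for protein-coding and 13 and 7 for lincRNA rows. The difference in direction between the bands or gene types was not tested. With a mean of at least 5 FPKM required, 40 antisense genes remained in the fit, 8 were higher and 14 lower, and the median log2 fold change was -0.10.

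**Figure D1:**
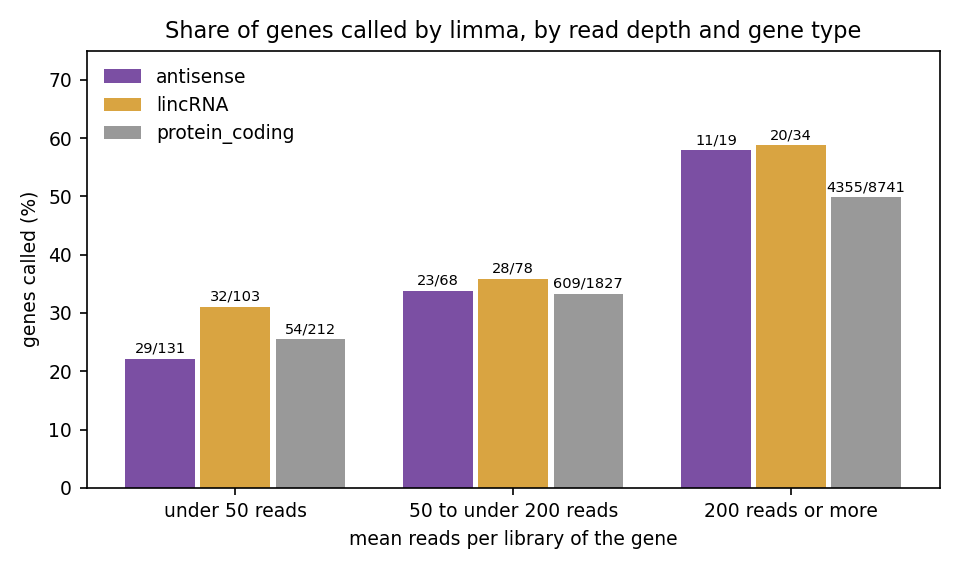
Share of genes called by limma (%, vertical axis from 0) for antisense, lincRNA and protein-coding rows in 3 bands of mean reads per library. Numbers over the bars are genes called and genes tested; the antisense bars rise from 22.1% to 57.9% across the bands.

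Among antisense genes that fell, the largest change on the log2(FPKM + 1) scale was that of RP11-613M10.6 (ENSG00000234160, chr9:37509147-37510296 on hg19, plus strand), an antisense gene of unknown role that ends 592 bases from the end of FBXO10. It stood at 25.1 and 29.5 FPKM in the vehicle libraries and at 10.8 and 8.16 FPKM in the MGH-CP1 libraries. Both treated libraries lay below both controls, as the choice of this gene required. The log2 fold change was -1.44 (SE 0.13, adjusted p = 0.000177, limma). RP11-64K12.2 (INAFM2, since annotated as a protein-coding gene) fell from 9.29 and 11.6 FPKM to 5.16 and 4.07 FPKM, a log2 fold change of -1.03 (SE 0.13, adjusted p = 0.000863). Neither of these genes overlaps a protein-coding row of the table. The order depends on the scale: with a pseudocount of 0.1, CTC-260E6.6, described below, changed by -1.63 and RP11-613M10.6 by -1.52.

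RP11-224O19.2 (TGFB2-AS1, chr1:218517538-218519020 on hg19, minus strand) lies head to head with TGFB2, which encodes a ligand of the TGF-beta family, with 556 bases between the spans. It measured 37.2 and 38.9 FPKM with vehicle and 20.9 and 21.9 FPKM with MGH-CP1, a log2 fold change of -0.80 (SE 0.06, adjusted p = 9.37e-05). TGFB2 itself measured 40.0 and 45.0 FPKM with vehicle and 24.5 and 23.9 FPKM with MGH-CP1, a log2 fold change of -0.78 (SE 0.07, adjusted p = 0.000183). In neither gene did the groups overlap, which the choice required of the antisense gene. The ratio of the antisense gene to TGFB2 changed by -0.02 on the log2 scale (SE 0.08, adjusted p = 0.873, limma). With 201 to 383 reads per library this was one of the deeper measured antisense genes. The printed windows of the 2 genes do not overlap, and the TEAD core stands in that of TGFB2. The window of the minus-strand TGFB2-AS1 lies at higher coordinates than that of the plus-strand TGFB2. By RefSeq starts the 2 genes thus overlap, unlike the spans of the authors' table. Whether reads of the 2 genes were mixed was not tested.

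CTD-2510F5.4 (PRR11-AS1, chr17:57280038-57281190) lies inside PRR11, a gene linked to cell cycle progression. It measured 42.5 and 45.6 FPKM with vehicle and 25.04 and 26.45 FPKM with MGH-CP1 (log2 fold change -0.75, SE 0.06, adjusted p = 0.000147). PRR11 fell alongside it, from 59.1 and 59.2 to 38.4 and 38.4 FPKM (log2 fold change -0.61). RP3-337H4.8 (POLH-AS1) fell from 1.86 and 3.31 FPKM to 0.759 and 1.31 FPKM (-0.80, adjusted p = 0.0219) inside POLH, which encodes a translesion DNA polymerase and fell by 0.56 on the log2 scale. CTC-260E6.6 spans ZNF486, a zinc finger gene, and fell from 2.18 and 1.69 FPKM to 0.502 and 0.605 FPKM (-0.91) while ZNF486 fell by 0.53. None of these 3 ratios of antisense gene to partner was called, although that of CTC-260E6.6 was with a pseudocount of 0.1 (-0.97, adjusted p = 0.0379). RP11-132A1.4 (EMSLR), which overlaps no protein-coding row, measured 3.99 and 6.34 FPKM with vehicle and 2.79 and 1.76 FPKM with MGH-CP1 (-0.90, adjusted p = 0.0117). The call of RP3-337H4.8 was lost without vehicle replicate 2 (adjusted p = 0.0531) and without MGH-CP1 replicate 1 (0.0952). On unfiltered rows RP3-337H4.8 (0.152) and RP11-132A1.4 (0.113) did not pass.

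Among antisense genes that rose, RP11-122K13.12 (ENSG00000235245, chr10:135108691-135109481, minus strand) showed the largest change on the same scale, from 9.16 and 11.3 FPKM to 26.05 and 23.26 FPKM. Both treated libraries lay above both controls, as the choice of this gene required. The log2 fold change was 1.20 (SE 0.10, adjusted p = 0.000162, limma). It overlaps TUBGCP2, a subunit of the gamma-tubulin complex, on the same strand, and TUBGCP2 rose by less, from 43.1 and 41.3 to 53.1 and 54.8 FPKM (log2 fold change 0.35, adjusted p = 0.00245). Reads of 2 genes on 1 strand cannot be told apart where their exons overlap. With a pseudocount of 0.1 its change was 1.26, against 1.75 for CTD-2555O16.2 and 1.63 for AC009133.12, both described below.

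CYP1B1-AS1 (chr2:38302791-38408997, plus strand) is divergent from CYP1B1, a cytochrome P450 monooxygenase induced through the aryl hydrocarbon receptor. It measured 1.05 and 2.17 FPKM with vehicle and 3.88 and 4.33 FPKM with MGH-CP1, a log2 fold change of 1.00 (SE 0.20, adjusted p = 0.00571). Its start lies inside the span of CYP1B1, 34253 bases from the start of that gene. CYP1B1 rose from 93.4 and 108 FPKM to 194 and 195 FPKM, a log2 fold change of 0.95 (SE 0.08, adjusted p = 0.000113). Both genes were higher in both treated libraries, as the choice of CYP1B1-AS1 required of the antisense gene. Their ratio changed by 0.05 (SE 0.17, adjusted p = 0.827, limma). With a pseudocount of 0.1 it changed by 0.43 and was not called (adjusted p = 0.264), so equal change holds only on the scale used here. LA16c-361A3.3, inside MAPK8IP3 (a scaffold of JNK signalling and axonal transport), also rose with its partner. It went from 0.766 and 0.633 FPKM to 1.64 and 2.71 FPKM (0.88). MAPK8IP3 rose from 5.23 and 5.10 to 13.1 and 13.4 FPKM (1.21). Which of these 2 genes rose more depends on the scale. Their ratio changed by -0.33 at the pseudocount of 1 and by 0.13 at 0.1, and was called at neither. With no filter on low values neither antisense gene passed (adjusted p = 0.0763 and 0.0697), and LA16c-361A3.3 rested on 6 to 26 reads per library.

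In 4 other large rises the partner was not tested or there was none. TLR8-AS1 rose from 1.20 and 1.19 FPKM to 3.43 and 2.75 FPKM (0.89, adjusted p = 0.00131), while its divergent partner TLR8, an endosomal sensor of single-stranded RNA, stayed at or under 0.042 FPKM. AC009133.12 rose from 0.558 and 0.737 FPKM to 2.20 and 2.19 FPKM (0.96, adjusted p = 0.00102). Its partner by overlap was listed at 0, but it also overlaps MVP, the major vault protein gene, which rose from 70.7 and 64.6 to 124 and 119 FPKM (0.83). RP11-875O11.3 (CHILL1) rose from 3.69 and 4.43 to 6.57 and 9.99 FPKM (0.85, adjusted p = 0.00627), and RP5-1112D6.4 from 1.26 and 0.428 to 1.87 and 2.54 FPKM (0.83, adjusted p = 0.0218). RP5-1112D6.4 rested on as few as 4 reads in a library, and its call was lost without MGH-CP1 replicate 2 (adjusted p = 0.0994). With no filter RP11-875O11.3 (0.0788) and RP5-1112D6.4 (0.149) did not pass. AC009133.12 and RP5-1112D6.4 had vehicle means under 1 FPKM and passed the limit through the MGH-CP1 group. Their direction was partly set by that choice.

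**Figure D2:**
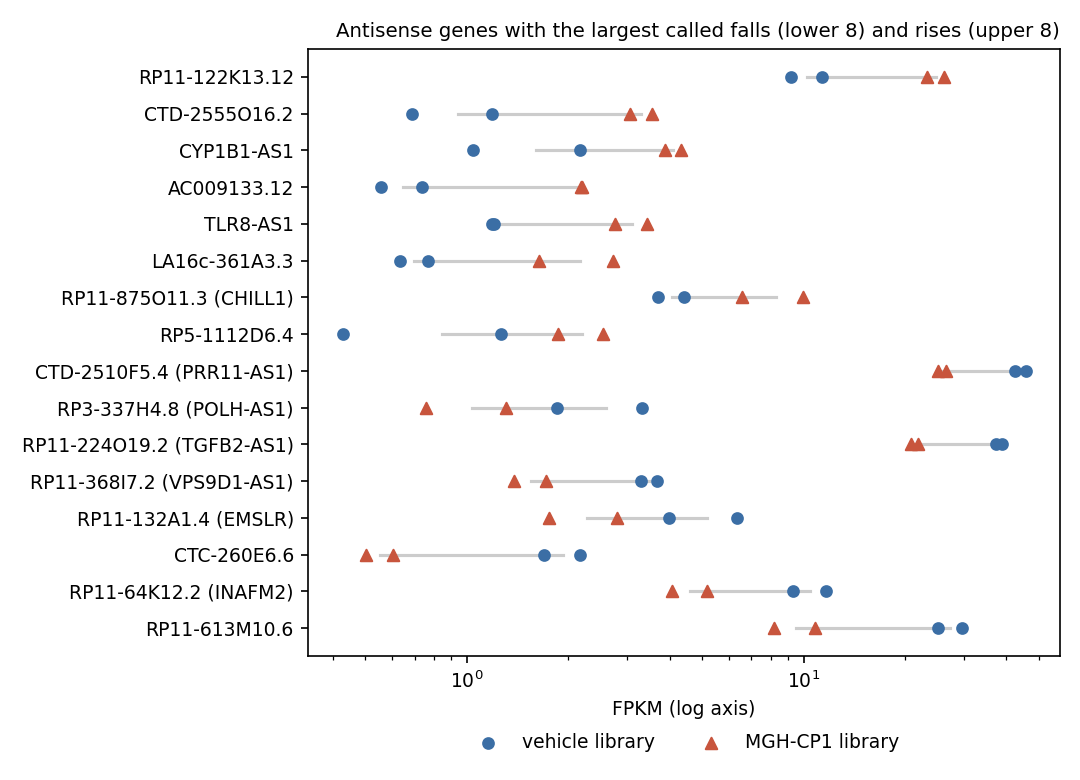
FPKM (log axis) of the 8 called antisense genes with the largest rises (upper rows) and the 8 with the largest falls (lower rows); circles are the vehicle libraries, triangles the MGH-CP1 libraries, and grey lines join the group means. In each of the 16 genes the treated libraries lie on 1 side of both vehicle libraries, as the choice of these genes required.

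Among the 5 most abundant antisense genes, 3 changed by less than 0.3 on the log2 scale of the authors' values. RN7SL1, an RNA of the signal recognition particle that lies inside RPS29 and has near-identical copies in the genome, stood at 1135 and 1057 FPKM with vehicle and 929 and 951 FPKM with MGH-CP1 (log2 fold change -0.22, adjusted p = 0.0465). It lacks the long poly(A) tail of a messenger RNA, and its level in these poly(A) libraries is uncertain. MMP24-AS1 (MMP24OS) rose from 51.3 and 46.1 to 57.7 and 59.2 FPKM (0.26, adjusted p = 0.0165), and FGD5-AS1 fell from 34.7 and 35.7 to 30.2 and 29.9 FPKM (-0.22, adjusted p = 0.0161) beside FGD5, which was listed at 0 in every library. CTD-2510F5.4 and RP11-224O19.2, described above, completed the 5 highest. The calls of RN7SL1, MMP24-AS1 and FGD5-AS1 were lost when MGH-CP1 replicate 1 (adjusted p = 0.271, 0.0708 and 0.0994) or MGH-CP1 replicate 2 (0.197, 0.107 and 0.122) was left out, and that of RN7SL1 also without vehicle replicate 1 (0.0864). RN7SL1 changed by -0.52 under quantile normalization (adjusted p = 0.000294) and was not called under median scaling (0.147), FGD5-AS1 not under quantile normalization (0.0734), and with no filter RN7SL1 (0.252) and MMP24-AS1 (0.0779) did not pass.

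The antisense genes were set beside their partners in the 130 pairs in which both genes reached 1 FPKM. In 25 further pairs the partner lay under that level. In level, the antisense gene stood at a median of 15.0% of its partner's FPKM, and in 14 pairs it had the higher level of the pair. Antisense genes were called in 26.9% of these pairs and partners in 41.5%. Both rose in 6 pairs, both fell in 7, and in 3 they were called in opposite directions. Only the antisense gene was called in 19 pairs (10 higher, 9 lower), only the partner in 38 (24 higher, 14 lower), and neither in 57. Across the 130 pairs the log2 fold changes had Pearson r = 0.28 and a Spearman rank correlation of 0.25, and 74 pairs (56.9%) shared the sign of change. All pairs come from the same 4 libraries and each pair shares a locus. No like values are given here for other opposite-strand pairs, so these cannot be called particular to antisense genes. Strand use in the counting is not given in the sources used here, so reads of an antisense gene and its partner cannot be told apart where exons overlap. By GENCODE 29 exons, r was 0.23 over the 80 pairs that share exon bases and 0.37 over the 42 that share none. In the 10 pairs that share at least 50% of the antisense exon bases r was 0.74, and 8 of these pairs shared the sign of change. The counts of pairs moved with the library left out: 8 pairs moved together without MGH-CP1 replicate 1, and 4 on unfiltered rows; opposite calls numbered 6 without vehicle replicate 1, 5 when vehicle replicate 2 was left out, and 2 when either MGH-CP1 library was.

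The layouts were described in the same way, without a test of the difference between them. Inside the partner, 34 of 51 pairs shared the sign of change (r = 0.33). Divergent pairs shared it in 20 of 42 (r = 0.25), convergent pairs in 14 of 29 (r = 0.01), and pairs with the partner inside the antisense gene in 6 of 8 (r = 0.82). Of all 218 genes, 11 of the 58 inside a partner were higher and 6 lower, 10 of the 48 divergent genes were higher and 6 lower, and 1 of the 37 convergent genes was higher and 6 were lower. Genes with no overlapping protein-coding row split into 10 higher and 8 lower of 59. For comparison, 16.1% of all 218 genes were higher and 12.8% lower, beside 20.0% and 25.1% of all rows tested. Whether the calls of any layout differ from these shares was not tested.

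The pairs that were called together are given in full, some of them named after their values were seen, with the log2 fold change of the antisense gene first. The rises were those of CYP1B1, MAPK8IP3 and ARHGAP5 with their antisense genes, MAP4K3 with AC007246.3 (MAP4K3-DT, 0.49 against 0.36), SLC9A3 with CTD-2228K2.7 (SLC9A3-AS1, 0.67 against 0.81) and CTSD with AC068580.6 (PRADX, 0.77 against 0.53). SLC9A3 encodes a sodium-proton exchanger and CTSD the lysosomal protease cathepsin D. The falls were those of PRR11, POLH and ZNF486, of RNASEH1 with AC108488.3 (RNASEH1-DT, -0.74 against -0.35), of SERTAD4 with SERTAD4-AS1 (-0.56 against -0.64), of OGFRL1 with RP11-154D6.1 (-0.41 against -0.73) and of MED1, a subunit of the Mediator complex, with CTB-131K11.1 (-0.23 against -0.19). At the pseudocount of 1 none of these 13 ratios was called.

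Facing promoters were compared next. The RefSeq windows of an antisense gene and of its opposite partner or near neighbour overlapped for 34 of the 74 genes that could be compared, 32 of them with a tested gene opposite. Of these 32 pairs 18 shared the sign of change (r = 0.18), and in 2 both genes were called. These were the pairs of MAP4K3, both higher, and of RNASEH1, both lower. MAP4K3 encodes a kinase of nutrient signalling and RNASEH1 a nuclease that cuts RNA in DNA hybrids. ZEB1-AS1, whose window printed above overlaps a ZEB1 window by 220 bases, fell while ZEB1 did not pass the test, as described below.

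**Figure D3:**
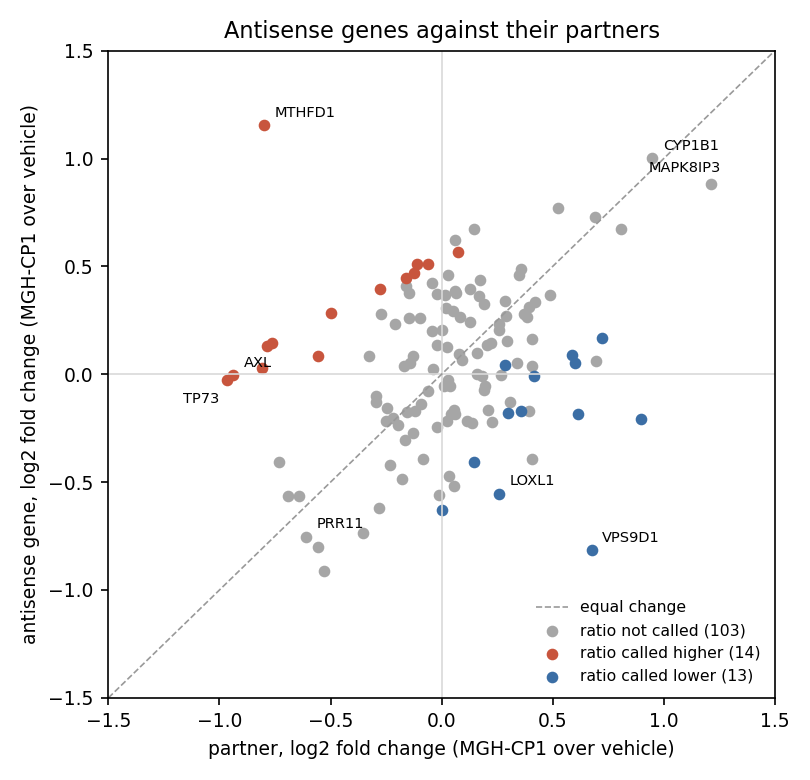
Log2 fold change (MGH-CP1 over vehicle) of each antisense gene against that of its partner in 130 pairs; the dashed line marks equal change, red and blue mark pairs whose ratio was called higher (14) or lower (13), and labels name some partners. Most pairs sit near the middle, with MTHFD1 and VPS9D1 far from the line and CYP1B1 close to it.

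Unequal change within a pair was tested with the ratio of antisense gene to partner in each library. The ratio was called in 27 of 130 pairs (20.8%), 14 higher and 13 lower, against 39.7% of all 1465 opposite-strand pairs of the table. The standard error of the ratio was larger in these pairs, with a median of 0.16 against 0.12 in the other 1335. Leaving out MGH-CP1 replicate 1 left 5 ratios higher and 6 lower, leaving out MGH-CP1 replicate 2 left 6 and 6, and leaving out vehicle replicate 2 left 13 and 8.

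In the opposite calls, the largest difference was that of CTD-2555O16.2 (chr14:64889653-64915275, minus strand), which lies inside MTHFD1, a cytosolic enzyme of folate one-carbon metabolism. The antisense gene measured 0.689 and 1.19 FPKM with vehicle and 3.05 and 3.54 FPKM with MGH-CP1 (log2 fold change 1.16, SE 0.15, adjusted p = 0.00104). MTHFD1 measured 51.5 and 49.4 FPKM with vehicle and 28.9 and 28.3 FPKM with MGH-CP1 (-0.80, SE 0.06, adjusted p = 7.42e-05). The groups stood apart in both genes, which the choice required of the antisense gene. The 2 genes moved in opposite directions, and the log2 ratio rose by 1.95 (SE 0.19, adjusted p = 0.00204, limma). The antisense values rest on 7 and 11 reads against 29 and 33. Its vehicle mean was under 1 FPKM, so it passed the limit through the MGH-CP1 group and its direction was partly set by that choice.

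RP11-368I7.2 (VPS9D1-AS1, chr16:89778264-89784573, plus strand) showed the reverse inside VPS9D1, which encodes a protein with a VPS9 domain. It fell from 3.67 and 3.30 FPKM to 1.39 and 1.72 FPKM (-0.82, SE 0.12, adjusted p = 0.00152). VPS9D1 rose from 3.373 and 3.798 FPKM to 6.235 and 6.401 FPKM (0.68, SE 0.09, adjusted p = 0.00112). The 2 genes thus stood at like levels in the vehicle libraries and apart in the treated ones, with a log2 ratio change of -1.49 (SE 0.14, adjusted p = 0.00207). RP11-660L16.2 rose from 2.15 and 2.54 to 3.32 and 3.47 FPKM (0.40, adjusted p = 0.0222) inside DHCR7, the last enzyme of cholesterol synthesis, which fell from 29.1 and 25.4 to 21.7 and 22.9 FPKM (-0.28), and the ratio rose by 0.67 (adjusted p = 0.0208). That antisense call was lost when vehicle replicate 1 (adjusted p = 0.0717), MGH-CP1 replicate 1 (0.0789) or MGH-CP1 replicate 2 (0.115) was left out. It was not made by voom on the recovered reads (0.162) or on unfiltered rows (0.102). Its ratio lost the call when either MGH-CP1 library was left out (0.0956 and 0.0895).

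**Figure D4:**
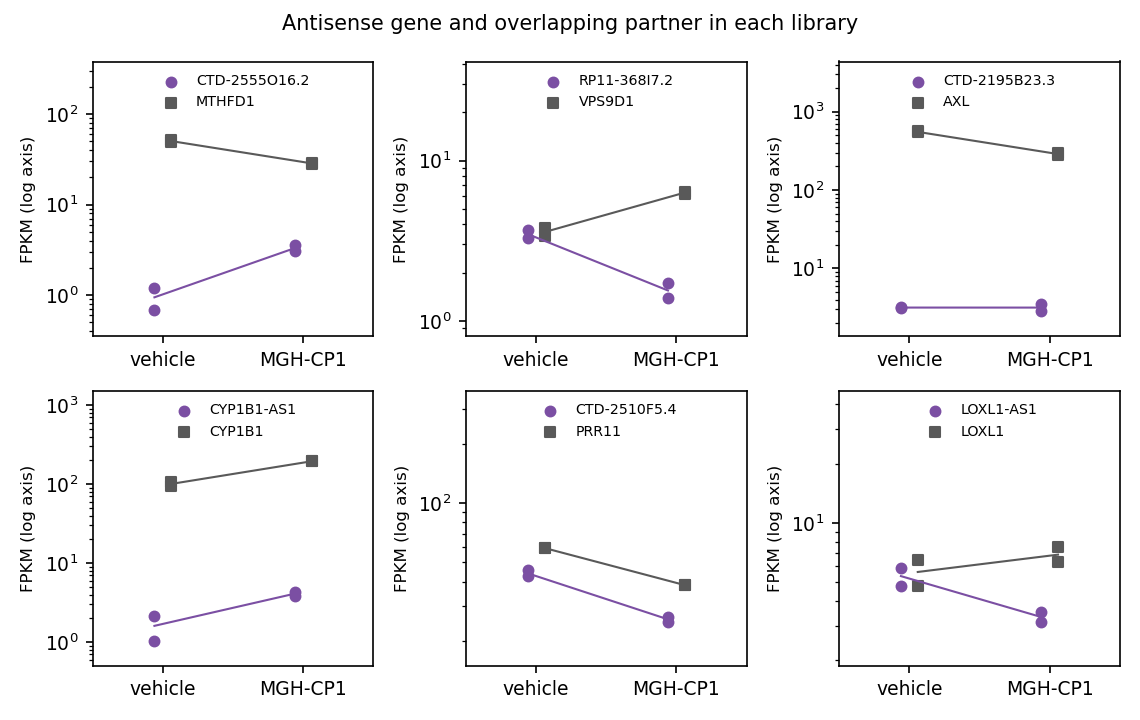
FPKM (log axes) of 6 antisense genes (circles) and their partners (squares) in each vehicle and MGH-CP1 library, with lines through the group means. The upper row shows MTHFD1, VPS9D1 and AXL, where the ratio changed, and the lower row CYP1B1 and PRR11, where both genes moved alike, and LOXL1, where only the antisense gene fell.

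The other named rises of the ratio came from a falling partner beside an antisense gene that did not pass the test. CTD-2195B23.3 lies inside AXL, a receptor tyrosine kinase and a TEAD target, and measured 3.22, 3.12, 2.83 and 3.50 FPKM over the vehicle and then the treated libraries. AXL measured 546 and 559 FPKM with vehicle and 279 and 297 FPKM with MGH-CP1 (-0.94, adjusted p = 6.43e-05), and the ratio rose by 0.93 (SE 0.11, adjusted p = 0.00377). The antisense groups overlapped and rested on 14 to 17 reads per library. TP73-AS1, convergent with TP73 of the p53 family, measured 4.87, 4.75, 4.82 and 4.60 FPKM. TP73 went from 2.138 and 1.802 to 0.357 and 0.693 FPKM (-0.97), and the ratio rose by 0.94 (adjusted p = 0.0119). TP73 passed the limit of 1 FPKM through the vehicle group, so its direction and that of the ratio were partly set by that choice. RP11-439A17.7 and RP11-312O7.2 are divergent from FAM72B and FAM72A, which are near-identical copies, so the reads of each pair are uncertain. The first measured 9.90, 6.56, 8.36 and 9.54 FPKM and the second 7.92, 10.6, 10.98 and 9.57 FPKM, with overlapping groups. Each was called higher when 1 vehicle library was left out, RP11-439A17.7 without replicate 1 (0.39, adjusted p = 0.0110) and RP11-312O7.2 without replicate 2 (0.33, adjusted p = 0.0211). Their partners fell by 0.79 and 0.76, and their ratios rose by 0.92 (adjusted p = 0.0334) and 0.91 (0.00587). The ratio of TP73-AS1 was not called without vehicle replicate 1 (0.0537) or MGH-CP1 replicate 1 (0.0606), and that of RP11-439A17.7 not without vehicle replicate 2 (0.0990) or either MGH-CP1 replicate (0.0501 and 0.138).

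The ratio also fell where the partner rose. The antisense gene now named ZDHHC12-DT did not pass beside ZER1, a substrate receptor of a ubiquitin ligase, which rose by 0.61, and the ratio fell by 0.80 (adjusted p = 0.00765). In 2 further falls the antisense gene changed. LOXL1-AS1 fell from 5.919 and 4.799 to 3.14 and 3.50 FPKM (-0.55, adjusted p = 0.00707) beside LOXL1, an enzyme that cross-links elastin, which measured 6.505, 4.746, 6.29 and 7.49 FPKM and did not pass, and the ratio fell by 0.81 (adjusted p = 0.00432). KDM4A-AS1 fell from 1.56 and 1.36 to 0.417 and 0.779 FPKM (-0.63, adjusted p = 0.0154) beside KDM4A, a histone demethylase, whose log2 difference was 0.00 (adjusted p = 0.982), and the ratio fell by 0.63 (adjusted p = 0.0318). The ratio of KDM4A-AS1 was not called when any 1 library was left out (adjusted p = 0.0852 and 0.109 without vehicle replicates 1 and 2, 0.159 and 0.0651 without MGH-CP1 replicates 1 and 2), nor was its own fall without MGH-CP1 replicate 1 (0.0899). With no filter LOXL1-AS1 (0.0624) and KDM4A-AS1 (0.0807) did not pass.

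A further 16 called ratios ranged from -0.55 to 0.83. The largest rise among them was that of RPPH1, the RNA subunit of ribonuclease P, beside PARP2, a DNA repair enzyme that fell by 0.81 on the log2 scale. RPPH1 itself differed by 0.03 and was not called. As for RN7SL1, its level in these poly(A) libraries is uncertain. Next came RP11-355B11.2 (USP34-DT) beside XPO1, the nuclear export receptor, which fell by 0.50, with a ratio rise of 0.79. These 2 pairs were named after their values were seen.

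Of 87 antisense RNAs listed because they have been studied in cancer or development, 18 were among the 218 genes, 1 higher, 5 lower and 12 not called (33.3% called, beside 28.9% of the 218 genes and 45.0% of all rows), with a median log2 fold change of -0.17 beside 0.08 for all 218. ZEB1-AS1 fell from 1.76 and 1.93 to 1.19 and 1.11 FPKM (-0.41, adjusted p = 0.0295), while ZEB1, a transcription factor of epithelial-mesenchymal transition, measured 12.5 and 12.9 FPKM with vehicle and 13.7 and 14.6 FPKM with MGH-CP1 and did not pass. PXN-AS1 fell from 1.43 and 1.88 to 0.741 and 0.857 FPKM (-0.56, adjusted p = 0.0159) beside PXN, the focal adhesion adaptor paxillin, at 59.8, 55.3, 57.0 and 57.0 FPKM. HCG18, from the major histocompatibility region, fell from 11.3 and 11.4 to 9.43 and 9.85 FPKM (-0.22, adjusted p = 0.0399). ARHGAP5-AS1 rose from 1.61 and 1.39 to 2.06 and 2.40 FPKM (0.37, adjusted p = 0.0441) together with ARHGAP5, a GTPase-activating protein, which rose by 0.49. LOXL1-AS1 and FGD5-AS1, given above, were the other falls.

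Several of these calls were lost when 1 library was left out, with fold changes of the same sign. The log2 fold change of ZEB1-AS1 then lay between -0.45 and -0.36 and that of HCG18 between -0.24 and -0.19. The call of ZEB1-AS1, which had 11 to 19 reads per library, was lost without vehicle replicate 2 (adjusted p = 0.0842), MGH-CP1 replicate 1 (0.0931) or MGH-CP1 replicate 2 (0.132), and in voom (0.211). Its ratio to ZEB1 (-0.55, adjusted p = 0.0245) was not called when any 1 library was left out (0.0676 to 0.135). PXN-AS1 was not called without vehicle replicate 2 (0.0541) or MGH-CP1 replicate 1 (0.0759), HCG18 when any 1 library was left out (0.0642 to 0.227) or under either scaling alternative (0.0790 and 0.0950), and ARHGAP5-AS1 without vehicle replicate 2 (0.120), MGH-CP1 replicate 1 (0.0823) or MGH-CP1 replicate 2 (0.235), nor in voom (0.106) or with the replicate block (0.0650). With no filter ZEB1-AS1 (0.1002), PXN-AS1 (0.0795), HCG18 (0.0697) and ARHGAP5-AS1 (0.155) did not pass.

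Among the 12 that did not pass, CRNDE measured 9.27 and 9.89 FPKM with vehicle and 8.73 and 6.82 FPKM with MGH-CP1 (-0.28, adjusted p = 0.0812). FOXD2-AS1 measured 1.66 and 1.57 FPKM with vehicle and 1.13 and 0.940 FPKM with MGH-CP1 (-0.36, adjusted p = 0.0518). CRNDE was called without MGH-CP1 replicate 1 (-0.44, adjusted p = 0.0237), and FOXD2-AS1 in voom (adjusted p = 0.0426). VIM-AS1 did not pass at 2.64, 2.56, 2.14 and 2.23 FPKM, but VIM, the mesenchymal intermediate filament gene, rose by 0.30 and the ratio fell by 0.48 (adjusted p = 0.0332). That ratio was not called without vehicle replicate 2 (0.106), MGH-CP1 replicate 1 (0.155) or MGH-CP1 replicate 2 (0.107). The others, MCM3AP-AS1, NUTM2A-AS1 (a gene with close copies), KTN1-AS1, TP73-AS1, HOXD-AS1 (HAGLR), PTOV1-AS1, AC018766.5 (PTOV1-AS2), ASMTL-AS1 and PCBP1-AS1, lay between -0.39 and 0.09 on the log2 scale. The lowest of these, AC018766.5, was called lower without MGH-CP1 replicate 1 (-0.88, adjusted p = 0.0228).

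Genes that process or retain nuclear RNA were set beside the antisense transcripts. Of 28 tested genes of nuclear RNA decay (the exosome, its cofactors and adaptors), 19 were lower (67.9%, beside 25.1% of all rows) and none higher, with a median log2 fold change of -0.28 beside -0.02 over all rows. EXOSC2 and EXOSC9, exosome subunits, fell from 23.4 and 20.9 to 9.76 and 10.3 FPKM (-1.07) and from 13.8 and 13.8 to 7.52 and 6.67 FPKM (-0.87). MPHOSPH6, an exosome-associated factor, fell by 0.78 on the log2 scale. Of 31 genes of the Integrator complex, transcript cleavage and termination, 11 were lower (35.5%, beside 25.1% of all rows called lower and 45.0% called either way) and none higher, among them SUPT16H (-0.91) and SSRP1 (-0.64) of the histone chaperone FACT and the cleavage factor CSTF2 (-0.77). The count of 11 was 6 on unfiltered rows and 6 without MGH-CP1 replicate 1, and 7 under either scaling alternative or without MGH-CP1 replicate 2.

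Of 27 genes that edit or sense double-stranded RNA, 7 were higher and 7 lower, 25.9% each beside 20.0% and 25.1% of all rows. The sensors OAS1 (0.54) and OAS2 (0.39) and the signalling adaptor MAVS (0.43) rose, while OAS3 (-0.52), the double-stranded RNA binding protein ILF2 (-0.55) and the microprocessor subunit DGCR8 (-0.53) fell. The 7 rises became 1 when MGH-CP1 replicate 2 was left out, 4 when MGH-CP1 replicate 1 was, and 2 on unfiltered rows. Among 6 tested RNAs known to stay in the nucleus or to be long and noncoding, 3 rose (50%, beside 20.0% of all rows). None fell, beside 25.1% of all rows. NEAT1 rose from 2.77 and 3.49 to 7.44 and 7.21 FPKM (1.02) and MALAT1 from 12.1 and 12.0 to 17.04 and 23.36 FPKM (0.68). LINC00657 rose from 157 and 173 to 225 and 229 FPKM (0.46). HCG11 (0.29), OIP5-AS1 (0.07) and TUG1 (-0.04) were not called. Whether any of these changes bears on the antisense transcripts was not tested.

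The vehicle mean was under 1 FPKM in 25 of the 218 genes, and 10 of these were called higher. In 13 the MGH-CP1 mean was under 1 FPKM, and 6 of these were called lower. Such genes passed the limit only through the group in which they were high, so their direction was partly set by the choice. Of the called antisense genes named above, this holds for the rises of CTD-2555O16.2, AC009133.12, LA16c-361A3.3, RP5-1112D6.4 and AC068580.6. It also holds for the falls of CTC-260E6.6, KDM4A-AS1 and PXN-AS1. Outside the antisense genes, OAS1 (0.734 and 0.658 FPKM with vehicle) and TP73 likewise passed through the group in which they were high. Other partners and listed genes were not counted in this way. Among the 180 genes with at least 1 FPKM in both groups, a choice added after seeing the data, 25 were higher and 22 lower, with a median log2 fold change of 0.05. Just inside the limit, RP11-264I13.2 measured 2.06, 0.851, 0.688 and 0.421 FPKM and RP11-511I2.2 measured 1.23, 1.23, 0.599 and 0.977 FPKM. Neither was called, although the MGH-CP1 libraries lay below the vehicle libraries in both. RP11-264I13.2 was called lower without vehicle replicate 2 (-0.98, adjusted p = 0.00146) and with the replicate block (adjusted p = 0.0344).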

How the data were processed

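RNA was measured in 4 poly(A)-selected MDA-MB-231 libraries, primed with random hexamers per the labels' protocols. The authors deposited 1 table of FPKM values on hg19. CASAVA 1.8 and STAR are named in the submitters' processing notes; which program counted reads, whether it used strand, and which gene annotation it read, was not given in the sources used here. Multiplied by gene length, 100% of the values above 0 were whole multiples of 1 read within 0.001, which gave the depth of each library.

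The values were transformed to log2(FPKM + 1), rows with a mean of at least 1 FPKM were kept (11790), and limma 3.58.1 in R 4.3.3 was fitted with group as its only term, with a mean-variance trend and Benjamini-Hochberg adjustment over all rows, two-sided. The call threshold was an adjusted p of 0.05. Ratios were tested in the same way over 1465 opposite-strand pairs, as the difference of log2 values in each library. The scripts were tested on simulated data. Tables and plots used Python 3.11.15, pandas 2.3.3, numpy 2.4.6 and matplotlib 3.10.9.

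A partner was the opposite-strand protein-coding row with the largest overlap of at least 1 base. Named genes were the 8 largest called rises and falls whose groups did not overlap, the 5 highest levels, the 5 largest called ratio changes each way, opposite calls, the genes nearest the limit, the studied antisense RNAs, and up to 3 called genes of each other list. A named ratio result is not reported here. The genes and lists were chosen with earlier results of these data known. Promoter windows came from RefSeq (GRCh38.p14) and exons from GENCODE 29, both matched by gene and not by coordinates. Alternatives were another pseudocount, other filters, quantile and median scaling, each library left out, a replicate block, voom (limma's weighted fit of log counts) on the recovered reads, and other partner rules.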

Additional observations from a re-analysis of the deposited data

How the results depend on the processing

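The deviations of same-numbered libraries of the 2 groups had r = 0.05 across 11790 genes. With 2 libraries per group this cannot settle whether same-numbered libraries were handled together, and the labels do not say. With the replicate block 40 antisense genes were higher and 29 lower, 13 ratios were higher and 13 lower, 14 pairs moved together and 4 apart.

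On unfiltered rows 12 antisense genes were higher and 7 lower, all 19 also called in the filtered fit, 4 pairs moved together, 6 Integrator and termination genes were lower and 2 double-stranded RNA genes higher. With a minimum of 5 FPKM, which leaves fewer genes, 8 were higher and 14 lower, the median log2 fold change turned to -0.10, 4 pairs moved together and 0 apart, 2 ratios were higher and 3 lower, and 4 double-stranded RNA genes were higher. The median was 0.11 with a pseudocount of 0.1, 0.10 under quantile normalization, 0.13 under median scaling, 0.11 in voom and 0.054 for genes at 1 FPKM in both groups. Integrator and termination genes lower numbered 7 under quantile normalization and 7 under median scaling. Voom called 24 higher and 23 lower, of which 44 of 47 were called in the same direction by the log2 fit.

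With each library left out in turn, 21 to 48 antisense genes were higher and 18 to 32 lower, the median was 0.0704 to 0.0804, 8 to 15 pairs moved together and 2 to 6 apart, 5 to 13 ratios were higher and 6 to 10 lower, 6 to 14 Integrator and termination genes were lower, and 1 to 6 double-stranded RNA genes were higher. A group with 1 library left is assumed to vary like the other. Of 26 called named antisense genes, 10 kept their call under every alternative that could be run. Depth limits the precision: 108 of the 218 genes had fewer than 30 reads in a library.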
